A study of Arabidopsis thaliana with 6 samples.

Results

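The genes described here are the cysteine-rich receptor-like kinases (CRKs) of Arabidopsis thaliana, chosen as every gene whose description in the deposited table names that protein family. The rule found 34 genes of 19807 listed, each counted once. RefSeq gives family names to 42 loci, of which 35 were listed and 33 are members. The 2 listed loci left carry another description and are given at the end. The table gives the symbol CRK34 to both AT4G11530 and AT4G11521; here CRK34 means AT4G11530, and the other gene is called by its ID.

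CRKs sit in the plasma membrane. Outside the cell they carry repeats of the DUF26 domain, built around conserved cysteines, and inside it a serine/threonine protein kinase, joined by a single membrane-spanning helix. Many CRK genes respond to salicylic acid, to pathogens and to reactive oxygen species, and the W-box, the site bound by WRKY transcription factors, is common in their promoters.

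The study compared seedlings of the splicing factor mutant prp8a-14 with Col-0 wild type. Both genotypes are in the Col-0 ecotype, and whole seedlings were collected at 8 days of growth in continuous light on plant nutrient media. One label field spells the mutant prp8-14. PRP8 is a core protein of the spliceosome, the machine that removes introns; the lesion of the allele is not given in the labels. There were 3 mutant libraries (replicates 4 to 6) and 3 wild type libraries (replicates 1 to 3), which the series design calls biological replicates. Messenger RNA was selected by its poly-A tail and sequenced in pairs. In the mutant, 49126331 to 63069817 counts fell on listed genes, against 50804951 to 54450545 in wild type, and 3 counts correspond to between 0.0484 and 0.0635 CPM, the unit used below, in which counts are divided by the scaled size of their library. PRP8A itself was at 537, 500 and 466 CPM in the mutant and 414, 389 and 433 CPM in wild type, and it rose by 0.28 on the log2 scale (SE 0.06), so its message was not lost in the libraries labelled as mutant. The other PRP8 gene, AT4G38780 (PRP8B), rose by 0.59 on the log2 scale (SE 0.13).

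Of the 34 members, 18 fell in prp8a-14, 0 rose and 16 did not pass the test, which was limma with Benjamini-Hochberg adjustment over all listed genes at a threshold of 0.05. At an unadjusted p under 0.05, 1 member was higher and 19 were lower in the mutant. The share that fell was 52.9%, beside 17.3% of all listed genes; 17.9% of all genes rose and 35.2% passed in either direction. Log2 differences, prp8a-14 minus wild type, had a median of -0.34 over the members and of 0.0037 over all genes. They were below 0 for 26 members and above 0 for 8. In 20 members every mutant library lay below every wild type library, which held for 23.7% of all genes; in 2, CRK20 and CRK31, every mutant library lay above, which held for 24.3%. Of the 18 that fell, CRK4 is the only one whose groups overlapped. The falls were mostly small: 3 members (CRK37, CRK7 and CRK36) fell at least 2-fold, a size reached by 1.49% of all genes, and 7 of the 18 moved by under 1.5-fold.

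**Figure D1:**
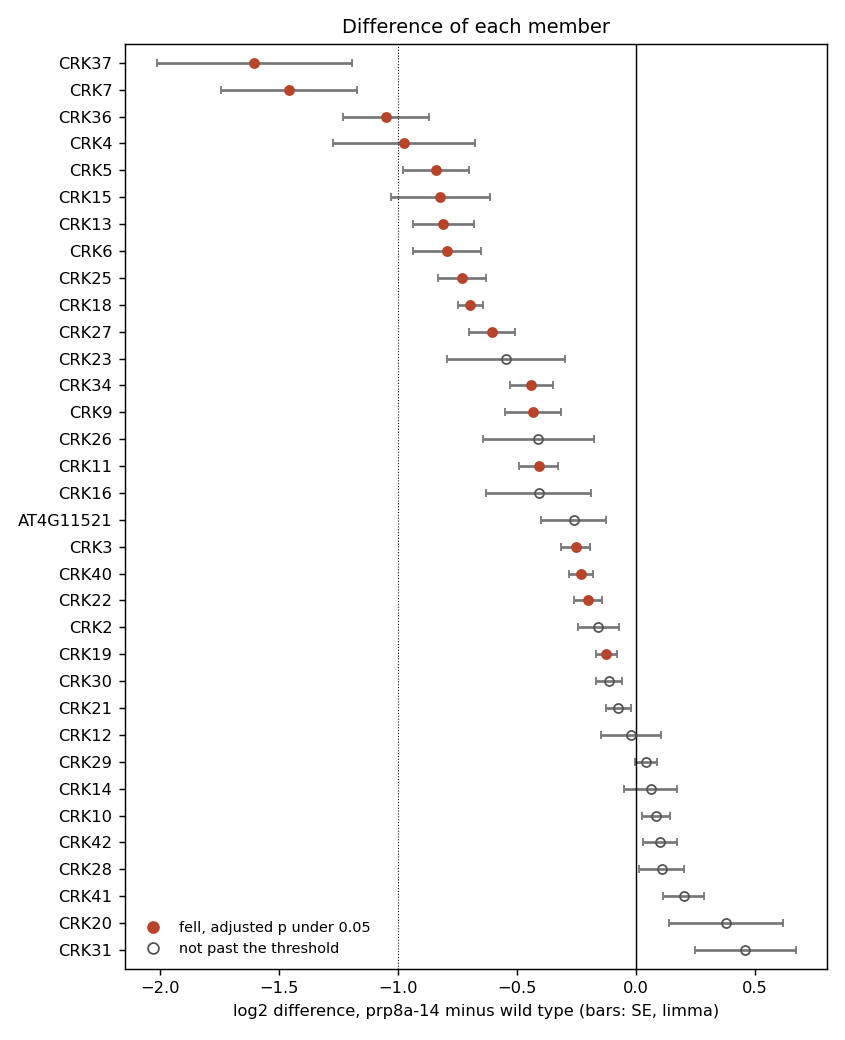
Log2 difference of each member, prp8a-14 minus wild type, with its standard error from limma; filled points passed the adjusted p threshold of 0.05 and open ones did not. The dotted line marks a 2-fold fall; 18 members are filled, all left of 0.

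The summed level of the family was 490.5, 490.6 and 497.8 CPM in the mutant libraries, against 567.5, 556.2 and 557.2 CPM in wild type. The groups did not overlap and lay far apart relative to their spread, at 493.0 ± 4.20 CPM in prp8a-14 and 560.3 ± 6.24 CPM in wild type (SD, n = 3 each). The 18 members that fell summed to 223 ± 4.13 CPM in the mutant and 290 ± 3.87 CPM in wild type. The 16 others summed to 269.5 ± 0.588 CPM in the mutant and 270.4 ± 2.39 CPM in wild type. Since the split into those 2 sums was made by the test itself, it is a description only.

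These are whole seedlings, in which fewer cells of a type and less RNA per cell cannot be told apart. All 8 shoot markers rose in the mutant (summed level 31606 to 34951 CPM, against 22178 to 23752 CPM in wild type). Of 10 root markers, 7 fell and 2 rose (summed level 578 to 604 CPM, against 565 to 585 CPM in wild type). Of 7 measured seed markers, 6 rose (11.7 to 22.6 CPM in the mutant, against 4.29 to 7.47 CPM in wild type). Within these, LHCB1.1, a light-harvesting antenna gene, rose by 0.93 on the log2 scale and LHCB2.1, another, by 0.94. CASP1, which helps build the Casparian strip, fell by 0.74. IRT1, which imports iron, rose by 1.12, and the root patterning regulator SCR by 0.25. The seed storage genes SESA3 and CRC rose by 3.37 and 2.56 from very low levels; SESA3 had 0 counts in 1 wild type library. The part of organ proportions in the CRK differences was not tested.

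**Figure D2:**
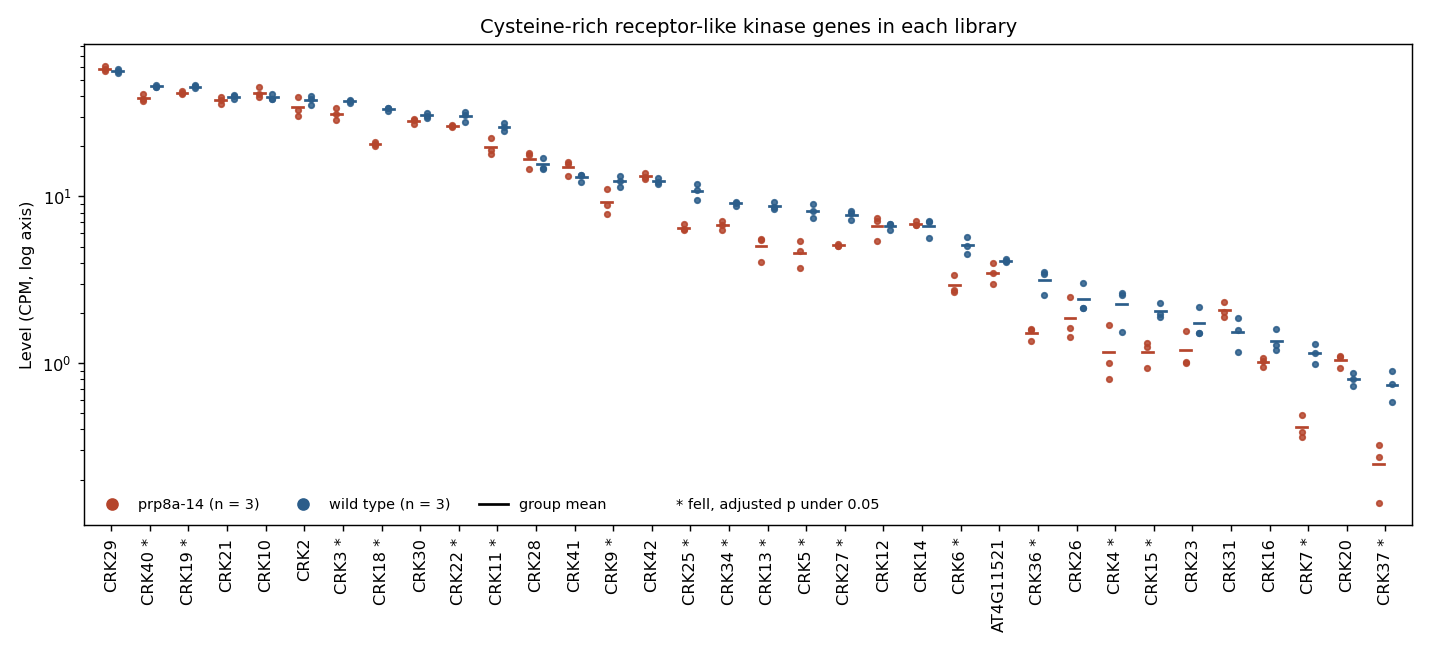
Level of each member in every library, in CPM on a log axis, with prp8a-14 left of wild type for each gene, bars at group means and genes ordered by wild type level. Of the starred genes, which fell, all but CRK4 have their 3 mutant points below their 3 wild type points.

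Several CRKs are known from work on salicylic acid, pathogens and cell death. CRK5 triggers cell death when its expression is forced and also acts in abscisic acid responses. It had 4.71, 3.70 and 5.39 CPM in the mutant, against 8.15, 7.39 and 8.99 CPM in wild type. All mutant libraries were below all wild type libraries, and the gene fell by 0.84 on the log2 scale (SE 0.14; limma, Benjamini-Hochberg adjusted p = 0.000735). CRK13, whose overexpression raises resistance to Pseudomonas syringae, had 4.05, 5.59 and 5.49 CPM in prp8a-14, against 8.62, 9.28 and 8.40 CPM in wild type. Its groups were well apart, and it fell by 0.81 (SE 0.13; limma, Benjamini-Hochberg adjusted p = 0.000521). CRK11, also called RLK3 and known to be induced by oxidative stress and salicylic acid, is expressed at a higher level. It had 18.9, 17.9 and 22.3 CPM in the mutant, against 27.4, 24.7 and 26.1 CPM in wild type, and fell by 0.41 (SE 0.08; limma, Benjamini-Hochberg adjusted p = 0.00233).

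CRK4, CRK19 and CRK20 resemble CRK5 in causing cell death when overexpressed, and they did not move together here. CRK4 had 0.995, 1.69 and 0.807 CPM in prp8a-14, against 2.57, 1.55 and 2.64 CPM in wild type. Its highest mutant library exceeded its lowest wild type library; it fell by 0.98 (SE 0.30; limma, Benjamini-Hochberg adjusted p = 0.0244), a call lost without mutant replicate 4 or 6 or wild type replicate 1 or 3 (adjusted p 0.0596 to 0.0900 by the same test). With 1 CPM added before the log the CRK4 fall was 0.59. CRK19, among the most abundant members, had 41.7, 42.7 and 41.2 CPM in the mutant, against 46.3, 45.7 and 44.8 CPM in wild type. The groups were apart but close, with a fall of 0.12 (SE 0.04; limma, Benjamini-Hochberg adjusted p = 0.0462), and the call was lost when any of the 6 libraries was left out. CRK20 had 0.941, 1.1 and 1.08 CPM in prp8a-14 and 0.870, 0.802 and 0.725 CPM in wild type. Every mutant library was the higher, yet the difference of 0.38 (SE 0.24) did not pass. CRK19 and CRK20 stand next to each other in the genome and their proteins share 84.9% of residues, the closest pair among members.

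Another group is tied to reactive oxygen species outside the cell. CRK6 and CRK7 protect against oxidative damage that starts in the cell wall space, and their proteins are 75.3% identical. CRK7 had 0.362, 0.487 and 0.387 CPM in the mutant, against 1.3, 1.15 and 0.991 CPM in wild type. These low levels rest on 20, 23 and 24 counts in prp8a-14 and 69, 60 and 56 in wild type, and the groups were far apart. CRK7 fell by 1.46 (SE 0.29; limma, Benjamini-Hochberg adjusted p = 0.00215), or by 0.60 with 1 CPM added before the log. CRK6 had 2.68, 2.75 and 3.36 CPM in the mutant, against 5.05, 4.51 and 5.72 CPM in wild type, with no overlap, and fell by 0.80 (SE 0.14; limma, Benjamini-Hochberg adjusted p = 0.00123). CRK2, which phosphorylates the NADPH oxidase RBOHD and acts in salt tolerance, had 39.7, 32.9 and 30.2 CPM in prp8a-14 and 38.6, 39.9 and 35.5 CPM in wild type. Mutant replicate 4 was as high as wild type while replicates 5 and 6 were below all wild type libraries, and the difference of -0.16 (SE 0.09) did not pass. Without that replicate it was -0.27 and passed, and without mutant replicate 6 it was -0.07 and did not (limma, Benjamini-Hochberg adjusted p = 0.00931 and 0.539).

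Other members link CRKs to immune receptors and to abscisic acid. CRK36 restrains abscisic acid and osmotic stress responses and interacts with the immune kinase BIK1. It had 1.59, 1.59 and 1.36 CPM in the mutant, against 3.50, 3.44 and 2.57 CPM in wild type. No libraries overlapped, and the gene fell by 1.05 (SE 0.18; limma, Benjamini-Hochberg adjusted p = 0.000883). CRK28 associates with the co-receptor BAK1 and raises immune responses when overexpressed; it had 14.5, 18.2 and 17.7 CPM in prp8a-14 and 14.7, 14.9 and 17.1 CPM in wild type. Its neighbour CRK29, with a protein 81.5% identical, had 56.7, 60.7 and 57.9 CPM in the mutant and 55.2, 58.3 and 56.6 CPM in wild type. The groups of both genes overlapped, and their differences of 0.11 (SE 0.09) and 0.04 (SE 0.05) did not pass.

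For the other members that fell no role is given here, though some had the clearest differences. CRK18 had 20.6, 21.2 and 20.1 CPM in the mutant, against 34.1, 32.3 and 33.7 CPM in wild type. The spread within each genotype was small beside the gap, and the fall of 0.70 (SE 0.05) had the smallest adjusted p of the family (limma, Benjamini-Hochberg, 2.76e-06). CRK25 had 6.84, 6.35 and 6.26 CPM in prp8a-14, against 9.57, 11 and 11.9 CPM in wild type, a fall of 0.73 (SE 0.10). CRK27 had 5.19, 5.04 and 5.05 CPM in the mutant, against 7.90, 8.19 and 7.20 CPM in wild type, a fall of 0.61 (SE 0.10). Neither gene's groups overlapped. CRK37 was the least abundant member, with 0.145, 0.275 and 0.323 CPM in prp8a-14, against 0.586, 0.745 and 0.902 CPM in wild type. It rests on 8, 13 and 20 counts in the mutant and 31, 39 and 51 in wild type. The groups were apart and it fell by 1.60 (SE 0.41; limma, Benjamini-Hochberg adjusted p = 0.0101), by 0.48 with 1 CPM added, and the call was lost without wild type replicate 3 (adjusted p = 0.0509).

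The 6 other genes that fell did so without overlap between genotypes. CRK15 had 1.25, 1.31 and 0.936 CPM in the mutant, against 2.29, 1.89 and 1.98 CPM in wild type, and fell by 0.82 (SE 0.21), or by 0.50 with 1 CPM added. CRK34 had 6.28, 6.71 and 7.10 CPM in prp8a-14, against 9.28, 8.79 and 9.17 CPM in wild type, and fell by 0.44 (SE 0.09). CRK9 had 7.82, 8.85 and 11 CPM in the mutant, against 11.4, 12.4 and 13.3 CPM in wild type, and fell by 0.43 (SE 0.12). The CRK9 call was lost without wild type replicate 3 (limma, Benjamini-Hochberg adjusted p = 0.0554). CRK3 had 34.0, 31.1 and 28.8 CPM in prp8a-14, against 37.8, 37.6 and 36.4 CPM in wild type, and fell by 0.25 (SE 0.06). CRK40 had 38.2, 37.4 and 41.4 CPM in the mutant, against 46.4, 45.5 and 45.4 CPM in wild type, and fell by 0.23 (SE 0.05). In CRK3 and CRK40 the nearest libraries of the genotypes were only a few CPM apart. CRK22 had 26.3, 26.0 and 26.8 CPM in prp8a-14, against 32.0, 31.0 and 28.1 CPM in wild type, and fell by 0.20 (SE 0.06), a call lost without mutant replicate 5 or wild type replicate 1 or 2 (limma, Benjamini-Hochberg adjusted p 0.0644 to 0.0853).

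The members that did not pass include some of the most abundant. CRK10, in which a gain-of-function allele alters growth and defence, had 40.9, 39.3 and 45.2 CPM in the mutant and 41.4, 38.4 and 38.4 CPM in wild type. CRK21 had 39.4, 35.9 and 37.7 CPM in prp8a-14 and 38.2, 40.7 and 39.9 CPM in wild type. CRK30 had 29.0, 28.9 and 27.0 CPM in the mutant and 31.9, 29.7 and 30.2 CPM in wild type. Only CRK30 of these 3 had its groups apart, and the differences were 0.08, -0.07 and -0.11. CRK41 had 13.2, 16.1 and 15.6 CPM in prp8a-14 and 13.5, 12.1 and 13.4 CPM in wild type; the difference of 0.20 (SE 0.09) did not pass, but became 0.29 without mutant replicate 4 and passed (limma, Benjamini-Hochberg adjusted p = 0.0193). CRK42 and CRK14 differed by 0.10 and 0.06, and CRK12 by -0.02, all with overlapping groups. The remaining members were under 5 CPM on average: CRK31 with a difference of 0.46 (SE 0.21), CRK23 with -0.55 (SE 0.25), CRK16 with -0.41 (SE 0.22), CRK26 with -0.41 (SE 0.23) and AT4G11521 with -0.26 (SE 0.14). Among these 5, CRK16 and AT4G11521 had every mutant library below every wild type library. CRK23 and CRK26 passed as lower when mutant replicate 5, for CRK23, or 6, for CRK26, was left out (limma, Benjamini-Hochberg adjusted p = 0.0424 and 0.0459). The CRK26 difference was -0.64 in that fit, but -0.25 without mutant replicate 5 and -0.24 without wild type replicate 3, neither of which passed (limma, Benjamini-Hochberg adjusted p = 0.482 and 0.510).

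Per kilobase of exon, CRK29 was the highest member in both genotypes, at 19.0 ± 0.666 CPM per kilobase in the mutant and 18.4 ± 0.506 in wild type (SD, n = 3 each). CRK10, CRK19 and CRK21 followed in the mutant at 16.4 ± 1.20, 16.0 ± 0.288 and 15.9 ± 0.730 CPM per kilobase and did not differ beyond their spread. CRK37 was the lowest in both genotypes, at 0.112 ± 0.0417 CPM per kilobase in prp8a-14 and 0.337 ± 0.0716 in wild type. In wild type the highest member stood 54.7-fold above the lowest on this scale. The order was largely shared: Spearman's rho between the genotypes' levels over the 34 members was 0.974, a description, since the points share their libraries and gene lengths. CRK18 was the tenth highest in the mutant and the sixth in wild type.

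Calls were found at every level. Among members averaging at least 20 CPM, 6 of 11 fell, with a median log2 difference of -0.16; among those from 5 to 20 CPM, 6 of 11 fell (median -0.43), and under 5 CPM 6 of 12 fell (median -0.67). Of all genes averaging at least 20 CPM, 17.8% fell and 26.2% rose; from 5 to 20 CPM 17.2% fell and 12.8% rose, and under 5 CPM 16.4% fell and 6.47% rose. The size of the difference was larger in the lower members, with a Spearman's rho of -0.657 between level and absolute difference over the 34 members and -0.217 over all genes. These points share libraries, and low counts scatter more.

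Most of the family lies in tandem arrays, rows of related genes produced by repeated duplication. Family loci whose locus numbers differ by at most 10 were joined in a row, and by that cut 7 of 34 members stood alone. A wider cut would leave fewer alone: CRK40 (AT4G04570), for example, lies near AT4G04540 (CRK39). On chromosome 4 were 30 of the 34 members, some in arrays and some alone. The largest row, from AT4G23130 to AT4G23320, holds 20 loci with family names and 17 members, of which 10 fell (median -0.41). Outside it 8 of 17 members fell (median -0.25). In the row the calls were not a single block: CRK5, CRK6 and CRK7 at its start fell, whereas CRK10, CRK12 and CRK14 did not pass and stand among CRK9, CRK11, CRK13 and CRK15, which fell. Both strands held calls, 5 of 8 members on the plus strand and 5 of 9 on the minus strand. Away from it, the neighbours CRK36 and CRK37 both fell, and neither CRK28 and CRK29 nor CRK30 and CRK31 passed.

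**Figure D3:**
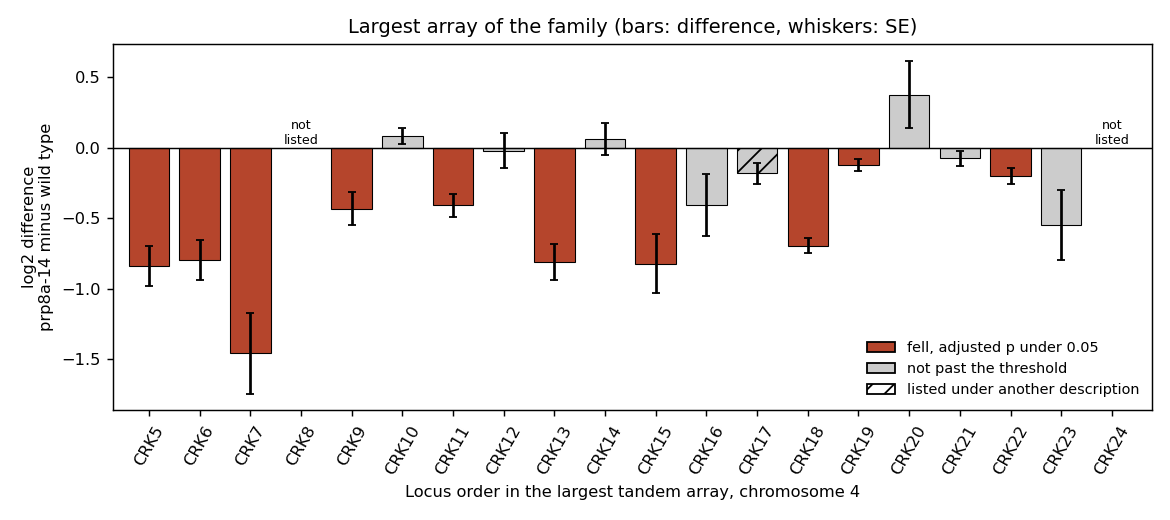
Log2 difference, prp8a-14 minus wild type, of the genes of the largest tandem array in locus order, with standard errors as whiskers; the hatched bar is CRK17, listed under another description, and 2 loci were not listed. Filled red bars are the 10 members that fell.

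The members share a gene structure that the selection did not use. In the longest RefSeq transcript of each gene (TAIR10.1), 23 of 34 members have 7 exons. Their median is 7 (range 1 to 9), beside a median of 4 for all listed genes. Of 29 members with 6 to 8 exons, 15 fell (51.7%), beside 16.5% of all genes with 6 to 8 exons. The mutation is in a splicing factor, but counts per gene do not show how introns were removed. The part of exon number or splicing in the CRK differences was not tested. CRK9 and AT4G11521 have 1 exon, code for 265 residues and lack the DFG motif of the kinase, which the other 32 carry. CRK9 fell and AT4G11521 did not pass. The cysteine motif C-X8-C-X2-C of DUF26 occurred 2 times in 32 proteins, 1 time in CRK27 and 3 times in CRK23, the longest protein at 830 residues. Genes with shared sequence could share reads. On either strand, 9 members had at least 5% of their 50-base windows in transcripts of another gene, whether a CRK or not. CRK16 (32.8%), CRK6 (22.9%) and CRK25 (15.7%) were highest, and counts of such members are less certain. Of those 9 members 5 fell, and of the 25 others 13 fell.

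Promoters were searched for the W-box core TTGAC on both strands, from 250 bases before to 50 bases after the RefSeq gene start. The core was present in 25 of 34 members (73.5%), beside 51.1% of the 19686 listed genes with a RefSeq model. It was present in 14 of the 18 members that fell and in 11 of the 16 that did not pass. The longer forms TTGACC and TTGACT, which contain the core, occurred in 23.5% and 44.1% of members, beside 14.4% and 22.0% of all genes. The core TGACG of sites bound by TGA factors, which can overlap a TTGAC, occurred in 41.2% of members and 23.6% of all genes. The extremes among the genes that fell were CRK11, with 7 cores, and CRK13, the largest fall among the 4 such members with 0. Their RefSeq sequences are shown so that this contrast can be seen, as the 250 bases before the start on the minus strand of chromosome 4, with cores on either strand in capitals (6 of the 7 in CRK11 lie in this stretch).
CRK11: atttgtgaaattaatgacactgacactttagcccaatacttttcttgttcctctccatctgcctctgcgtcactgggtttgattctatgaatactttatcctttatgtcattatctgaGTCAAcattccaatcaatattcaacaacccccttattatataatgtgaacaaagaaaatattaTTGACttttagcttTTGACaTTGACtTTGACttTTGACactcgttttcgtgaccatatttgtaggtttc
CRK13: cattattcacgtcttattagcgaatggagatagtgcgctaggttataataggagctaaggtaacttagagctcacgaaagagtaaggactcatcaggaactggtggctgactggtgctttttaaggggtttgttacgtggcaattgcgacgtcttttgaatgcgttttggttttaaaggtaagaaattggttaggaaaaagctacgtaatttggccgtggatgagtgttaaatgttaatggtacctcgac
Both genes fell, one with clustered cores and the other with none in this window; a match describes letters and not binding.

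The pathways in which CRKs are known to act were examined through lists of their other genes. Of 19 genes of salicylic acid synthesis, signalling and response, 7 fell (36.8%) and 1 rose (5.26%), with a median of -0.23. Of all listed genes 17.3% fell and 17.9% rose. PR2, a glucanase induced by salicylic acid, had 3.04, 2.71 and 3.60 CPM in the mutant, against 9.07, 8.25 and 9.15 CPM in wild type, and fell by 1.51. SARD1, an activator of salicylic acid synthesis genes, fell by 0.71. CBP60G, which works in parallel with SARD1, rose by 0.46. Of 12 genes tied to reactive oxygen species, inside or outside the cell, 6 fell and 3 rose (median -0.20). The list held RBOHA to RBOHF, PRX33, PRX34, APX1, CAT2, GSTU24 and BIK1. The stress-induced glutathione transferase gene GSTU24 fell by 1.19 and the ascorbate peroxidase gene APX1 by 0.64, whereas the NADPH oxidase genes RBOHA and RBOHB rose by 0.45 and 0.44. RBOHD, the substrate of CRK2, had 117, 102 and 129 CPM in prp8a-14, against 94.1, 92.8 and 95.0 CPM in wild type, and rose by 0.30.

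Of 16 genes for cell-surface receptors and their partners, 3 fell (18.8%) and 2 rose (12.5%), with a median of -0.05. These shares were near or below those of all listed genes, 17.3% and 17.9%. FRK1, a receptor kinase gene used as a marker of pattern-triggered immunity, had 2.97, 3.45 and 2.53 CPM in the mutant, against 11.3, 13.1 and 15.7 CPM in wild type, and fell by 2.16. WAK1, a wall-associated kinase, fell by 0.63. BAK1, the partner of CRK28, had 107, 106 and 104 CPM in prp8a-14, against 90.5, 89.8 and 90.4 CPM in wild type, and rose by 0.23; FER, the receptor kinase FERONIA, rose by 0.13. Of 10 measured leaf senescence genes 2 rose and 2 fell: SEN1 rose by 1.22 and PAO, an enzyme of chlorophyll breakdown, by 0.28, while the transcription factor gene NAC092 fell by 0.64 and SGR1, which acts in chlorophyll breakdown, by 0.25.

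**Figure D4:**
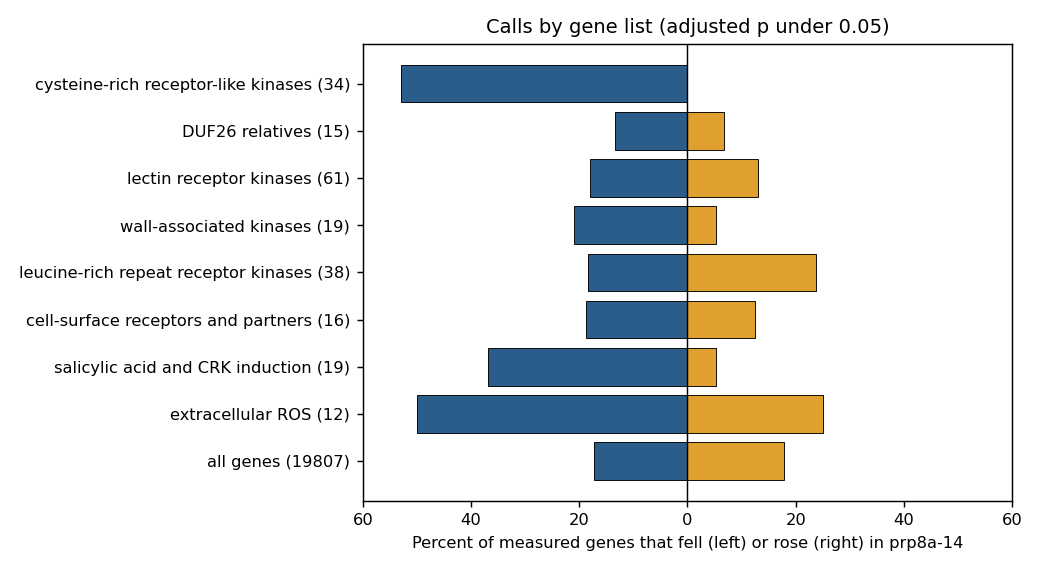
Percent of the measured genes of each list (number in brackets) that fell, left of 0, or rose, right of 0, in prp8a-14 against wild type by limma at an adjusted p under 0.05. The CRKs have 52.9% on the left and none on the right, beside 17.3% and 17.9% of all genes. The list labelled extracellular ROS also includes genes of reactive oxygen species inside the cell.

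CRK45 and CRK17 lie outside the selection because the table describes them otherwise. CRK45 (ARCK1), which acts with CRK36 in abscisic acid responses, had 3.67, 3.47 and 4.28 CPM in prp8a-14, against 5.71, 6.15 and 5.87 CPM in wild type. Its groups did not overlap, and it fell by 0.64 (SE 0.12; limma, Benjamini-Hochberg adjusted p = 0.00157). CRK17, listed as EMB1290, had 15.2, 13.8 and 13.5 CPM in the mutant and 17.3, 15.9 and 15.0 CPM in wild type; the groups overlapped at their edge, and the difference of -0.18 (SE 0.08) did not pass.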

How the data were processed

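Messenger RNA of 6 whole-seedling samples was analysed from 1 table of the series. It holds log2 expression values for each library, read here as log2 CPM because whole counts could be recovered from them. Per the file headers it also holds the authors' log2 fold changes, p-values and adjusted p-values. Those were read only for a comparison. The submitters' processing notes name STAR 2.5.1a, featureCounts 1.4.6-p5, Subread, Salmon 0.8.2, bcl2fastq, edgeR and limma; the build, annotation and strand setting were not given in the sources used here, so overlapping and antisense genes are uncertain. The table has 3 further per-sample columns that match no sample and were not used; the authors' fit may have included them. Of 20079 lines, 272 repeats were dropped. Whole counts were recovered from the deposited log2 values (all within 0.1 of a whole number, taking 0.5 to have been added to each count before the log), and CPM was computed from them with the scaled library size.

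The deposited log2 values were fitted with limma 3.58.1 (R 4.3.3; empirical Bayes with trend, genotype only, 6 libraries), two-sided, with Benjamini-Hochberg adjustment over 19807 genes, after a test on simulated data. The 3-count floors give only the level that so few counts stand for; the recovered counts are printed for the members that rest on the fewest among those that fell. Libraries of 1 genotype differed by more than sampling noise (chi-square per degree of freedom 8.94 to 15.8 in the mutant and 8.00 to 8.71 in wild type). Members and lists were chosen with earlier results of these data known. The naming rule took all members past the threshold or averaging at least 5 CPM, every other member at least by name, and from each list up to 2 genes that rose and 2 that fell; RBOHD and BAK1 were added as partners of members, and the 2 promoters were chosen after their motif counts were seen. List genes were matched by symbol, 4 of them by locus; 1 root marker that the rule would name is not reported here by name. Alternatives were quantile normalization, library totals, a 5 CPM filter, limma without trend, voom, 0.1 or 1 CPM added, and leaving out each library. Promoters, gene models and protein comparisons come from RefSeq TAIR10.1 (Python 3.11.15, Biopython 1.88), matched by locus for all 34 members.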

Additional observations from a re-analysis of the deposited data

How the results depend on the processing

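Leaving out each library in turn gave 14 to 17 members that fell, 14 to 18 that changed in either direction, and 5405 to 6416 genes changed. Members that fell numbered 18 with quantile normalization, voom or added CPM, 21 with library totals (29.6% of all genes fell there), 15 without the trend, and 12 of 22 tested with the 5 CPM filter. Of 430 member results under alternatives, 394 kept direction and side of the threshold, 19 lost the call, 10 gained one, and 7, none called, changed sign. The sign changed with library totals for CRK29 (-0.0520), CRK10 (-0.0111) and CRK14 (-0.0328), without wild type replicate 2 for CRK14 (-0.0505, within a leave-one-out range up to 0.123), and for CRK12 with quantile normalization (0.0230), without mutant replicate 4 (0.126) and without wild type replicate 1 (0.00041, within a leave-one-out range down to -0.103); the cause was not tested. Without the trend CRK4, CRK9, CRK19 and CRK22 lost their calls, CRK16 passed as lower and CRK20 as higher; CRK31 passed as higher with quantile normalization, and CRK2, CRK21 and CRK30 passed as lower with library totals. In the authors' deposited table there were 17 members that fell and 1 that rose; CRK19 (adjusted p = 0.0506) did not pass there and CRK41 (adjusted p = 0.0494) did. No paired analysis was possible because the groups share no replicate numbers. Depth limits CRK37, CRK7 and CRK20 most, whose levels were near or under 1 CPM.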

Other observations

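Lists of CRK relatives and of other receptor kinases gave a background. Each was found by words in the gene descriptions and need not hold a whole family. Of 15 genes described as cysteine-rich repeat secretory, plasmodesmata-located or receptor-like protein kinase-related proteins, 2 fell (13.3%) and 1 rose (6.67%), with a median of -0.11. They were taken as DUF26 relatives by description, and their domains were not checked. Of all listed genes 17.3% fell and 17.9% rose. AT1G63600 had 3.06, 2.69 and 3.58 CPM in prp8a-14, against 6.45, 7.33 and 7.36 CPM in wild type, a fall of 1.18 on the log2 scale, and CRRSP12 fell by 0.25, while CRRSP11 rose by 0.20. Of 61 lectin receptor kinase genes, 11 fell (18.0%) and 8 rose (13.1%), with a median of -0.07. AT1G61480 and CES101 fell by 0.77 and 0.56, and AT1G61490 and LECRK14 rose by 1.01 and 0.54. Of 19 genes of wall-associated kinases, 4 fell (21.1%) and 1 rose (5.26%), with a median of -0.05. WAK3 had 0.434, 0.191 and 0.468 CPM in the mutant, against 1.21, 1.13 and 1.36 CPM in wild type, and fell by 1.83, while AT3G17350 rose by 0.56. Of 38 genes described as leucine-rich repeat receptor kinases, 7 fell (18.4%) and 9 rose (23.7%), with a median of -0.02. AT1G35710 and AT5G24100 fell by 0.58 and 0.49, and EMS1, a receptor of anther development, and AT1G60630 rose by 0.59 and 0.37. The difference between the CRKs and these lists was not tested.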
